A study of Mus musculus with 16 samples.

Results

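A set of 8 genes of the voltage-gated sodium channel family was followed in primary neuronal cultures (PNCs) from mouse cortex exposed to oxygen–glucose deprivation (OGD). The pore-forming alpha subunits were Scn1a, Scn2a, Scn3a, Scn8a and Scn9a, and the auxiliary beta subunits were Scn2b, Scn3b and Scn4b. These 8 genes were chosen by symbol among 53679 gene symbols of the isoform table, and the FPKM values of all isoforms of a symbol (fragments per kilobase of transcript, scaled to library size, hence a level per length) were summed. They comprised 60 of the 135202 annotated isoforms in the table. Wild-type cortical neurons of fetal mice at embryonic day 15 received 10 μM of the antidepressant tianeptine (TIA) or vehicle (DMSO) at day in vitro (DIV) 8. After 24 h, at DIV 9, they underwent 3 h of OGD or a sham procedure, and RNA was taken at 6 h of reoxygenation. The 4 groups were CONTROL-VEH (cultures 1 to 4), CONTROL-TIA (5 to 8), OGD-VEH (9 to 12) and OGD-TIA (13 to 16), with 4 biological replicates each. For CONTROL-VEH and OGD-VEH the titles give vehicle, while the treatment labels read untreated. The sources used here give no strain or litter, and a culture is a mixture of cortical cells grown in medium for neurons.

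Voltage-gated sodium channels open on depolarisation and carry the inward current of the upstroke of the action potential. The alpha subunit forms the pore and the voltage sensors, while beta subunits alter gating, bring channels to the membrane and act as cell adhesion molecules. In cortex, channels gather at the axon initial segment, where forms of early life give way to forms of the mature axon. Sodium entry through these channels adds to the ionic load of neurons deprived of oxygen and glucose.

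The alpha subunit genes arose from one another by duplication and remain alike in sequence. A 92-base coding exon of Scn2a, Scn3a and Scn8a is shown because its likeness between genes bears on how short reads can be shared out. Among fragments described further on, the span of Scn3a-203 covers the Scn3a exon, while that of Scn2a-207 does not cover the Scn2a exon. The exons were read from the GRCm38 annotation and transcripts on the strand of the gene, 5′ to 3′, and capitals mark the bases that differ from the exon of Scn2a. They lie at chr2:65682690-65682781 on the plus strand (Scn2a), chr2:65525695-65525786 on the minus strand (Scn3a) and chr15:100959603-100959694 on the plus strand (Scn8a).
Scn2a: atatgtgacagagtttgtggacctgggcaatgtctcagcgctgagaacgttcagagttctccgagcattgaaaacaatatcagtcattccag
Scn3a: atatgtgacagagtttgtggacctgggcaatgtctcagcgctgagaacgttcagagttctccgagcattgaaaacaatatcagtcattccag
Scn8a: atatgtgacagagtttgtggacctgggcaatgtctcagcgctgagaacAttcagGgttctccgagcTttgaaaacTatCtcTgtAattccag
The exons of Scn2a and Scn3a were identical over all 92 bases, so a 50-base read inside this exon can come from either gene. The Scn8a exon differed from them at 7 bases, with a longest identical stretch of 48 bases, shorter than a read. The matching exon of Scn9a differed from that of Scn2a at 2 bases and that of Scn1a at 7, with longest identical stretches of 43 and 29 bases. Other exons were not compared.

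A depth of 19760000 to 25320000 reads was estimated from small steps in the scaled FPKM of 15151 genes with a single isoform. It is a scaled depth, and its upper end exceeds the aligned reads per sample that the study reports. Cultures within the OGD groups were uneven. The summed level of 10 pan-neuronal marker genes was 2959, 2989, 3254 and 3399 FPKM in CONTROL-VEH and 3004, 2975, 3040 and 3068 in CONTROL-TIA. In OGD-VEH it was 2615, 1937, 1877 and 1215 FPKM in cultures 9 to 12, and in OGD-TIA it was 2844, 2857, 2919 and 1713 FPKM in cultures 13 to 16. OGD-VEH 9 stood closest to the CONTROL cultures, OGD-VEH 12 stood farthest from them, and OGD-TIA 16 stood apart from the other OGD-TIA cultures. In such bulk RNA, fewer neurons and less RNA per neuron cannot be told apart. Results without a given culture are described mainly for OGD-VEH against CONTROL-VEH and for the comparison over both arms.

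In sham-treated neurons with vehicle, Scn3b, the beta subunit that binds alpha subunits without a covalent bond, had the highest level of the family at 288 ± 47.6 FPKM (SD, n = 4). Scn2a, whose channel serves the immature axon initial segment of excitatory neurons, reached 64.5 ± 10.5 FPKM, and Scn3a, an alpha subunit of embryonic and neonatal neurons, 48.5 ± 9.19 FPKM. Their ranges overlapped. Scn8a, the alpha subunit of mature initial segments and nodes of Ranvier, followed with 26.0 ± 4.07 FPKM. Scn2b, a beta subunit bound to alpha subunits by a disulfide bridge, stood at 8.51 ± 0.68 FPKM and Scn1a, the main alpha subunit of fast-spiking inhibitory neurons, at 5.55 ± 0.744 FPKM. Scn9a, best known from sensory neurons of the pain pathway, and Scn4b, a beta subunit linked to resurgent sodium current, were near the lower end of the table at 0.343 ± 0.167 and 0.0818 ± 0.0289 FPKM. Apart from Scn2a and Scn3a, neighbours in this order did not overlap in the 4 CONTROL-VEH cultures. These sums include short annotated fragments, so the same order was also read from complete protein-coding isoforms alone, a choice made after the isoform values were seen. There Scn3b had 52.4 ± 6.96, Scn2a 26.8 ± 1.36, Scn3a 17.7 ± 1.01 and Scn8a 13.9 ± 1.14 FPKM, the order was the same and no neighbours overlapped.

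**Figure D1:**
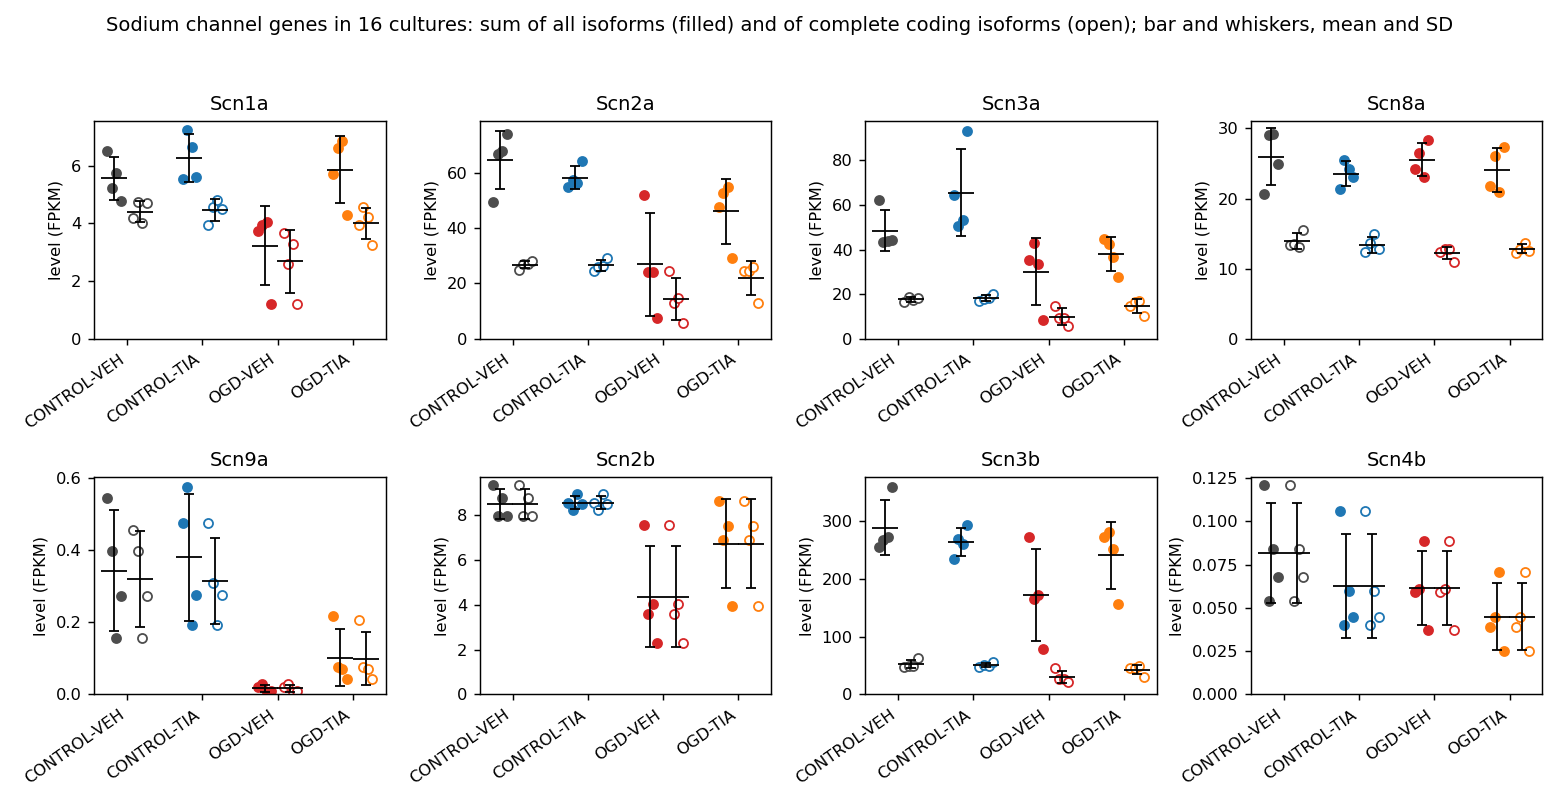
Levels of the 8 sodium channel genes in FPKM (y axis, a scale per gene) in the 16 cultures by group (x axis), as the sum of all isoforms (filled points) and of complete coding isoforms (open points), with the mean and SD of 4 cultures. For Scn2a, Scn3a, Scn2b and Scn3b the OGD-VEH cultures spread widely, with culture 12 lowest (7.38 FPKM for Scn2a), whereas Scn8a stayed between 20.7 and 29.3 FPKM in all 16 cultures.

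The comparison of OGD-VEH with CONTROL-VEH asked how OGD acted on neurons that had received vehicle. All 8 genes had a lower mean after OGD, from 4.96% of CONTROL-VEH for Scn9a to 98.3% for Scn8a, but none passed the study's thresholds (padj of at most 0.05 together with a log2 fold change of 1 or more in either direction) in limma on log2(FPKM + 0.1). The thresholds were passed by 4.09% of 16346 genes, in the lower direction by 1.68%. The study, which used DESeq2, reported more genes than this at the same thresholds. At an unadjusted p under 0.05, 5 members were lower, against 14.9% of the 16346 genes, and against 9.14% in the fit without filter from which Scn9a was read. No culture of OGD-VEH overlapped the CONTROL-VEH range for Scn1a, Scn3a, Scn9a and Scn2b, 4 of 8 members, against 9.95% of genes that were lower without overlap. Here and below, shares without overlap were taken over genes averaging 0.5 FPKM or more, which leaves out Scn9a and Scn4b. For each of the 4 members without overlap a two-sided exact permutation test gave p = 0.0286, the smallest p that 4 against 4 cultures allow.

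In the CONTROL-VEH cultures Scn2a measured 49.4, 66.8, 67.9 and 73.9 FPKM. In the OGD-VEH cultures 9 to 12 it measured 52.1, 24.1, 23.97 and 7.38 FPKM. OGD-VEH 9 lay within the CONTROL-VEH range and the other OGD-VEH cultures lay below it. The log2 fold change was −1.55 ± 0.50 (SE; 95% interval −2.69 to −0.40), with padj = 0.0743 in limma and p = 0.0571 in the exact permutation test. Without OGD-VEH 9 the log2 fold change was −1.97 with padj = 0.0133 in limma, and without OGD-VEH 12 it was −1.03. In complete coding isoforms all 4 OGD-VEH cultures lay below CONTROL-VEH, where Scn2a ranged from 24.96 to 28.2 FPKM against 24.4, 12.9, 14.7 and 5.57 FPKM after OGD. This gave −1.07 on the log2 scale with padj = 0.0612 in limma.

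Scn3a, the other alpha subunit typical of young neurons, measured 62.3, 43.5, 43.8 and 44.4 FPKM without OGD, against 35.5, 42.8, 33.7 and 8.23 FPKM in OGD-VEH. All OGD-VEH cultures were below all CONTROL-VEH cultures, OGD-VEH 10 by less than 1 FPKM. The log2 fold change was −0.91 ± 0.48 (padj = 0.204 in limma), and −0.37 without OGD-VEH 12. For the complete coding isoforms, which varied less between CONTROL-VEH cultures (16.4 to 18.7 FPKM), OGD-VEH measured 14.8, 9.47, 9.54 and 5.80 FPKM, and the log2 fold change of −0.91 ± 0.24 had padj = 0.0345 in limma.

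CONTROL-VEH cultures had 6.50, 5.23, 5.73 and 4.76 FPKM of Scn1a, against 3.73, 3.95, 4.05 and 1.20 FPKM after OGD. The groups did not overlap, and the first 3 OGD-VEH cultures lay close together. The log2 fold change was −0.89 ± 0.37 with padj = 0.125 in limma, and −0.49 without OGD-VEH 12. Scn8a measured 20.7, 29.1, 29.3 and 24.9 FPKM in the control group and 24.3, 26.5, 23.1 and 28.3 FPKM after OGD. The OGD-VEH cultures lay inside the CONTROL-VEH range, and OGD-VEH 12, lowest for Scn2a, Scn3a and Scn1a, was the highest of its group. The log2 fold change of Scn8a was −0.02 ± 0.15, with a 95% interval of −0.35 to 0.32 (padj = 0.946 in limma). In complete coding isoforms Scn8a was at 88.0% of CONTROL-VEH, with 13.3, 13.5, 13.1 and 15.6 FPKM without OGD and 12.3, 12.8, 12.8 and 10.96 FPKM after it, and these groups did not overlap. There the log2 fold change was −0.18 ± 0.10 (padj = 0.184 in limma).

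Levels of Scn9a were 0.545, 0.396, 0.156 and 0.273 FPKM without OGD and 0.020, 0.030, 0.008 and 0.010 FPKM in OGD-VEH cultures 9 to 12. No OGD-VEH culture came near the CONTROL-VEH range, OGD-VEH 9 included. Scn9a was under the filter of a mean of 0.5 FPKM and was read from the same fit without filter, where 0.0307% of 32532 genes passed the thresholds as lower. Its log2 fold change was −1.84 ± 0.30 with padj = 0.0612 in limma (exact permutation p = 0.0286), and padj = 0.0192 without OGD-VEH 9. The pseudocount of 0.1 FPKM exceeds the OGD-VEH values, so this fold change understates the difference. In estimated reads, Scn9a had 274 in the 4 CONTROL-VEH libraries and 14 in the 4 OGD-VEH libraries. Per depth this was 5.23% of CONTROL-VEH, with an exact 95% interval of 2.82 to 8.92% that covers counting error only.

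Among the beta subunits, Scn2b measured 9.35, 7.97, 8.76 and 7.95 FPKM in CONTROL-VEH, against 7.55, 3.61, 4.02 and 2.28 FPKM after OGD. The groups did not overlap, and OGD-VEH 9 was close to the lowest CONTROL-VEH culture. The log2 fold change was −1.07 ± 0.31 with padj = 0.0605 in limma, and −1.37 with padj = 0.00499 without OGD-VEH 9. Values of Scn3b were 255, 267, 271 and 359 FPKM in CONTROL-VEH, against 273, 164, 172 and 77.7 FPKM after OGD. OGD-VEH 9 again lay within the CONTROL-VEH range and the others below it. The log2 fold change was −0.87 ± 0.33 with padj = 0.107 in limma, and −1.13 with padj = 0.0232 without OGD-VEH 9. Scn4b stayed between 0.025 and 0.121 FPKM in all 16 cultures, an estimated 36 reads in CONTROL-VEH and 26 in OGD-VEH. Its ratio per depth of 73.9% had a counting interval of 42.8 to 126%, so no difference was detectable at this depth.

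The number of members that passed differed with the way isoforms were summed. All isoforms of Scn2b are complete coding, so its values are the same in both sums. Its padj differed only through the other genes in the fit. In complete coding isoforms, 7 of 8 members (all but Scn4b) were lower in OGD-VEH without overlap, against 11.5% of 12814 genes. There 4 members had padj ≤ 0.05 in limma (Scn3a, Scn2b, Scn3b and, read without filter, Scn9a), against 9.09% of genes that were lower, and Scn9a and Scn2b also passed the fold threshold, against 2.68%. These sums and the sums of all isoforms come from the same libraries. With all isoforms, leaving out OGD-VEH 9 gave 4 members called (Scn2a, Scn2b, Scn3b and Scn9a), where 6.12% of all genes were called lower. Leaving out any other culture of this comparison gave 0, where 0 to 0.172% of all genes were called lower.

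**Figure D2:**
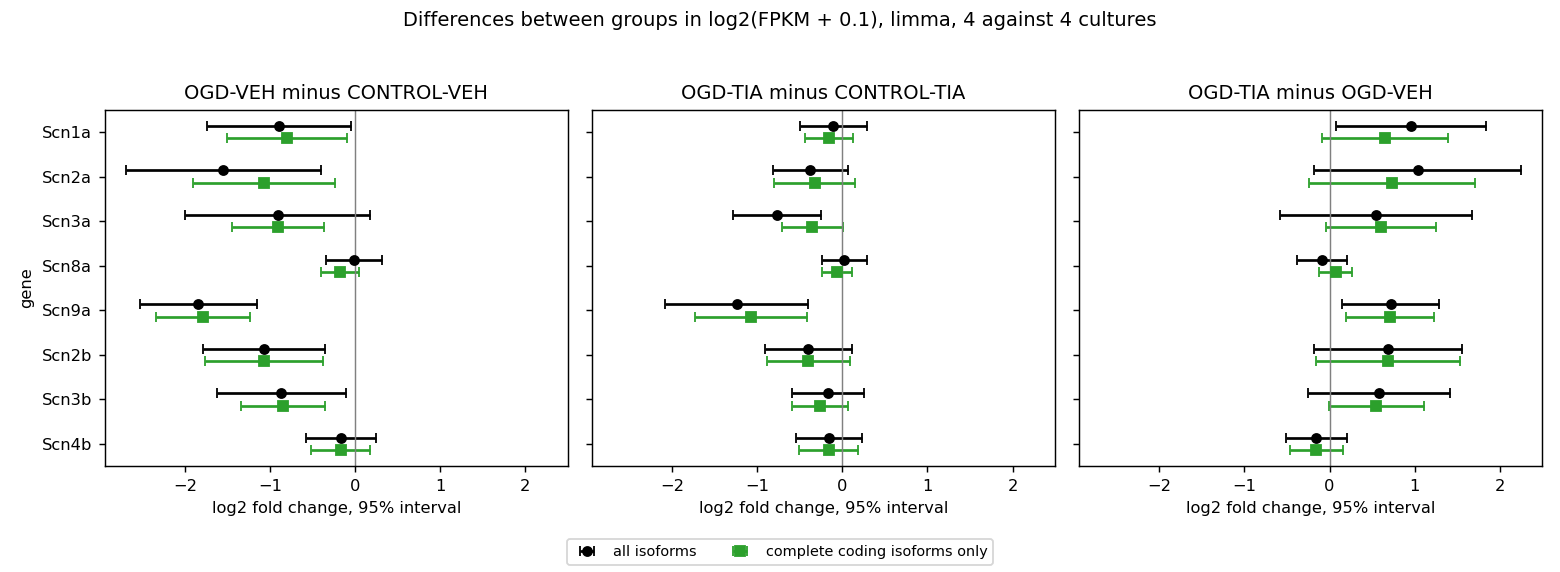
Differences in log2(FPKM + 0.1) with 95% intervals (x axis) for the 8 genes (y axis) in 3 comparisons of 4 against 4 cultures, for the sum of all isoforms (black circles) and of complete coding isoforms (green squares). In OGD-VEH minus CONTROL-VEH all genes except Scn8a and Scn4b lie between −1.84 and −0.80, and in OGD-TIA minus CONTROL-TIA only the intervals of Scn9a, and of Scn3a with all isoforms, lie wholly below 0.

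The comparison of OGD-TIA with CONTROL-TIA asked the same of neurons that had received TIA. No member was called in limma, and 0% of 16242 genes were. The study, which used DESeq2, did report differentially expressed genes here at these thresholds, fewer than in the vehicle arm. With each isoform weighted by its length, limma called 0.17% of genes higher and 0.273% lower, and 0 members. At an unadjusted p under 0.05, 2 members, Scn3a and Scn9a, were lower, against 7.92% of genes and 5.83% without filter. Scn2a measured 55.0, 57.2, 56.2 and 64.1 FPKM in CONTROL-TIA and 47.4, 52.6, 54.9 and 29.1 FPKM in OGD-TIA. The groups just failed to overlap, with OGD-TIA 16 far below the rest, and the log2 fold change was −0.38 ± 0.19 (95% interval −0.82 to 0.07, padj = 0.319 in limma). Scn3a measured 64.7, 50.6, 53.4 and 93.1 FPKM in CONTROL-TIA and 44.9, 42.3, 36.8 and 27.5 FPKM in OGD-TIA, which did not overlap. Its log2 fold change was −0.77 ± 0.22 (padj = 0.154 in limma) and became −0.35 in complete coding isoforms, where no member was free of overlap. Scn2a and Scn3a were the 2 members lower without overlap, against 6.72% of genes.

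Scn9a measured 0.476, 0.574, 0.192 and 0.276 FPKM in CONTROL-TIA and 0.218, 0.077, 0.070 and 0.042 FPKM in OGD-TIA. OGD-TIA 13 overlapped CONTROL-TIA and the other OGD-TIA cultures lay below it. Estimated reads were 286 and 96, a ratio per depth of 31.5% with a counting interval of 24.7 to 39.8%, and the log2 fold change was −1.24 ± 0.36 (padj = 0.257 in limma without filter). The means of the other genes in OGD-TIA were 102% of CONTROL-TIA for Scn8a, 93.7% for Scn1a, 91.0% for Scn3b, 78.7% for Scn2b and 71.7% for Scn4b. Their log2 fold changes lay between −0.40 and 0.02 with padj of 0.353 to 0.931 in limma. With all isoforms summed, OGD-TIA 16 was the lowest of its group for 7 of the 8 genes and the highest for Scn8a. In complete coding isoforms its Scn8a level of 12.5 FPKM lay within the 12.2 to 13.7 FPKM of OGD-TIA 13 to 15.

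OGD-TIA was also set against OGD-VEH. In limma 0 members and 0% of 16351 genes were called, and 2 members, Scn1a and Scn9a, were higher in OGD-TIA at an unadjusted p under 0.05, against 2.87% of genes and 2.37% without filter. These 2 were higher without overlap, against 1.3% of genes. Without OGD-VEH 9, 1476 of 16378 genes were higher at an unadjusted p under 0.05 in limma, against 469 of 16351 with it. The member values given here are from all cultures of both groups. Scn1a measured 5.73, 6.59, 6.84 and 4.28 FPKM in OGD-TIA, above the highest OGD-VEH culture at 4.05 FPKM, with a log2 difference of 0.96 ± 0.39 (padj = 0.551 in limma). In complete coding isoforms Scn1a overlapped, at 0.65 on the log2 scale (padj = 0.470 in limma). Scn9a differed by 0.72 ± 0.25 (padj = 0.701 in limma) with all isoforms and also did not overlap in complete coding isoforms. Scn2a differed by 1.04 with a 95% interval of −0.18 to 2.25, Scn2b by 0.69 (−0.18 to 1.55), Scn3b by 0.58 (−0.26 to 1.42) and Scn8a by −0.09 (−0.39 to 0.20).

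Whether the OGD effect itself differed between the TIA and the vehicle arm was tested with the interaction over all 16 cultures. The log2 effect of OGD was less negative with TIA by 1.17 ± 0.58 for Scn2a (95% interval −0.07 to 2.41), 0.79 for Scn1a, 0.70 for Scn3b, 0.67 for Scn2b and 0.60 for Scn9a. Padj in limma was 0.722 to 1.0 over the 8 members, and 0 members were called, at an unadjusted p under 0.05 also 0, against 0% and 6.06% of 16313 genes. For Scn8a the difference was 0.04, with an interval of −0.35 to 0.42. These member values are from all 16 cultures. Without OGD-VEH 9, 1337 genes had a positive and 1602 a negative interaction at an unadjusted p under 0.05 in limma, against 434 and 554 with it. In neurons without OGD, TIA against vehicle gave log2 differences of −0.16 to 0.41 with padj of 0.937 to 0.999 in limma. There 0 members were called or had an unadjusted p under 0.05, against 0% called and 3.84% of 16170 genes. The comparisons share their control and OGD cultures with those given before.

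Over both arms, with TIA or vehicle as a term, the 8 OGD cultures were compared with the 8 CONTROL cultures. Here 4 members had padj ≤ 0.05 in limma, all lower after OGD, against 13.4% of 16313 genes that were lower and 5.42% without filter, and 1 of them, Scn9a, was called, against 0.962% called lower in the fit without filter. Scn9a fell by 1.54 on the log2 scale (± 0.24 SE, padj = 0.00313 in limma). Scn2b fell by 0.73 (padj = 0.0185), Scn3a by 0.84 (padj = 0.0303) and Scn2a by 0.96 (padj = 0.0315). Scn3b was at −0.52 (padj = 0.0784), Scn1a at −0.50 (padj = 0.106), Scn4b at −0.16 (padj = 0.396) and Scn8a at 0.00 with a 95% interval of −0.18 to 0.19 (padj = 0.980). Without OGD-TIA 16 only 2 members were at padj ≤ 0.05, since padj was 0.0601 for Scn2a and 0.0605 for Scn3a in limma. The share of all genes lower at that padj was then 9.94%, against 13.4% with all cultures. Scn2a also lost padj ≤ 0.05 without CONTROL-VEH 2, 3 or 4 or OGD-VEH 10 or 11, and Scn3a without CONTROL-VEH 1 or CONTROL-TIA 8. In these fits 10.3 to 12.4% of all genes were lower at that padj. In complete coding isoforms, 6 members had padj ≤ 0.05 in limma (also Scn1a at 0.0492 and Scn3b at 0.0104), against 17.2% of 12808 genes that were lower.

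The alpha subunits differed in how far they moved, and so their shares differed. In complete coding isoforms the 5 alpha subunits summed to 63.1 ± 3.34 FPKM in CONTROL-VEH, 63.0 ± 3.70 in CONTROL-TIA, 39.2 (23.5 to 55.2) in OGD-VEH and 53.4 ± 9.92 in OGD-TIA. Scn2a held 42.1 to 43.7% of that sum in CONTROL-VEH. It held 44.1, 34.1, 36.5 and 23.6% in OGD-VEH cultures 9 to 12. Scn8a held 20.9 to 23.2% in CONTROL-VEH and 22.3, 33.9, 31.7 and 46.6% in OGD-VEH. OGD-VEH 9 lay within the CONTROL-VEH range for Scn8a and just above it for Scn2a, with Scn9a at 0.0362% against 0.253 to 0.767% in CONTROL-VEH, and in OGD-VEH 12 Scn8a was the largest alpha subunit. In OGD-TIA, cultures 13 to 15 had 41.9 to 43.9% Scn2a and 21.9 to 22.5% Scn8a, and OGD-TIA 16 had 33.2 and 32.3%. The log2 ratio of Scn8a to Scn2a within a culture, which no scaling between libraries can change, was −1.04 to −0.86 in CONTROL-VEH. It was −0.98, −0.01, −0.20 and 0.98 in OGD-VEH and within that range in OGD-TIA 13 to 15 (−1.0, −0.93 and −0.91), with −0.04 in OGD-TIA 16. The log2 ratio of Scn2b to Scn2a was −1.87 to −1.29 in OGD-VEH against −1.83 to −1.42 in CONTROL-VEH. Scn3a to Scn2a stood at −0.63 to −0.53 in CONTROL-VEH and at −0.72, −0.45, −0.62 and 0.06 in OGD-VEH.

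**Figure D3:**
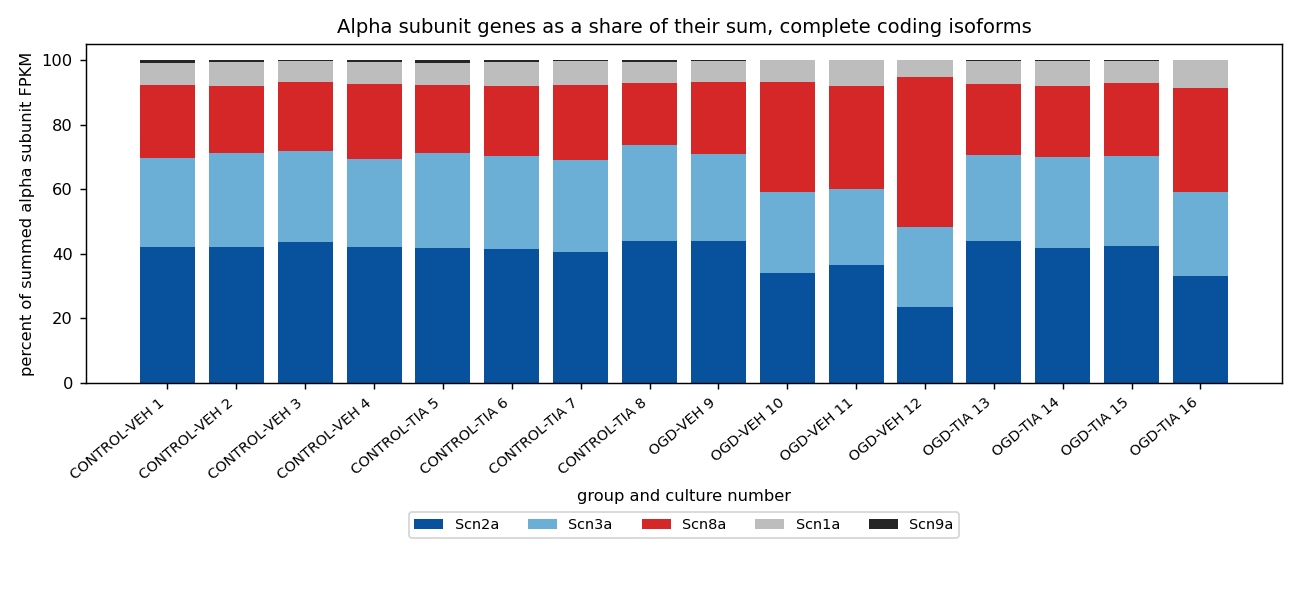
Share of each alpha subunit gene (y axis, percent of the summed FPKM of Scn1a, Scn2a, Scn3a, Scn8a and Scn9a in complete coding isoforms) in each of the 16 cultures (x axis). The Scn8a share is 33.9, 31.7 and 46.6% in OGD-VEH 10, 11 and 12 and 32.3% in OGD-TIA 16, and at most 23.2% in the other 12 cultures.

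Over the 16 cultures, levels of several members moved side by side. On log2 values of complete coding isoforms, Pearson's r was 0.981 between Scn2a and Scn3a, 0.964 between Scn2a and Scn2b, 0.963 between Scn3a and Scn3b and 0.956 between Scn1a and Scn2a. With all isoforms Scn2a and Scn3b reached 0.972. Scn8a had r between −0.48 and −0.25 with the other members when all isoforms were summed, and 0.25 to 0.72 in complete coding isoforms. These values are a description over libraries that share groups and scaling, and OGD-VEH 10 to 12 and OGD-TIA 16 were the lowest 4 cultures for Scn2a.

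Much of the sum of some genes was assigned to short annotated fragments. Scn2a-207, a 513-base transcript annotated as subject to nonsense-mediated decay, held 50.7% of the Scn2a sum in CONTROL-VEH. It averaged 32.7 FPKM there and 10.1 FPKM after OGD with vehicle (30.9%). The full-length coding isoforms Scn2a-202 (8690 bases) and Scn2a-201 (8935 bases), which differ in their first exon, were at 57% and 49% of CONTROL-VEH, with 9.10 ± 5.04 against 15.98 ± 1.43 FPKM and 5.09 ± 2.77 against 10.4 ± 2.12 FPKM. Scn3a-203, an incomplete transcript of 365 bases, held 62.5% of the Scn3a sum, with 30.3 ± 10.1 FPKM in that group against 19.96 ± 12.9 FPKM in OGD-VEH. The full-length Scn3a-202 went with 16.5 ± 1.16 and 9.09 ± 3.48 FPKM, and its SD in CONTROL-VEH was the smaller of the pair. In CONTROL-VEH 1 and CONTROL-TIA 8 the high Scn3a sums of 62.3 and 93.1 FPKM came with 45.5 and 72.6 FPKM of this fragment, while the complete coding isoforms were at 16.4 and 19.9 FPKM.

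For Scn3b, the 385-base incomplete Scn3b-209 held 72.6% of the sum in CONTROL-VEH and was at 63.5% of that level in OGD-VEH. Among the complete isoforms of Scn3b, Scn3b-203 averaged 17.4 FPKM in OGD-VEH against 23.2 in CONTROL-VEH, Scn3b-206 5.70 against 12.8 and Scn3b-201 3.91 against 11.8. The long coding isoforms of Scn8a were close between groups, with Scn8a-205 at 81% and Scn8a-201 at 84.3% of CONTROL-VEH. Transcripts of Scn8a that are not complete coding were uneven, with Scn8a-209 at 82.1%, Scn8a-217 (a retained intron) at 93%, Scn8a-210 at 139% and Scn8a-216 (a retained intron, 2.81 ± 3.30 against 1.51 ± 1.80 FPKM) at 187%. Of the Scn1a isoforms, Scn1a-203 was at 30.8% and Scn1a-201 at 85.9%. The 50-base reads were divided between overlapping isoforms by probability, so single isoform values are uncertain and were not tested.

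**Figure D4:**
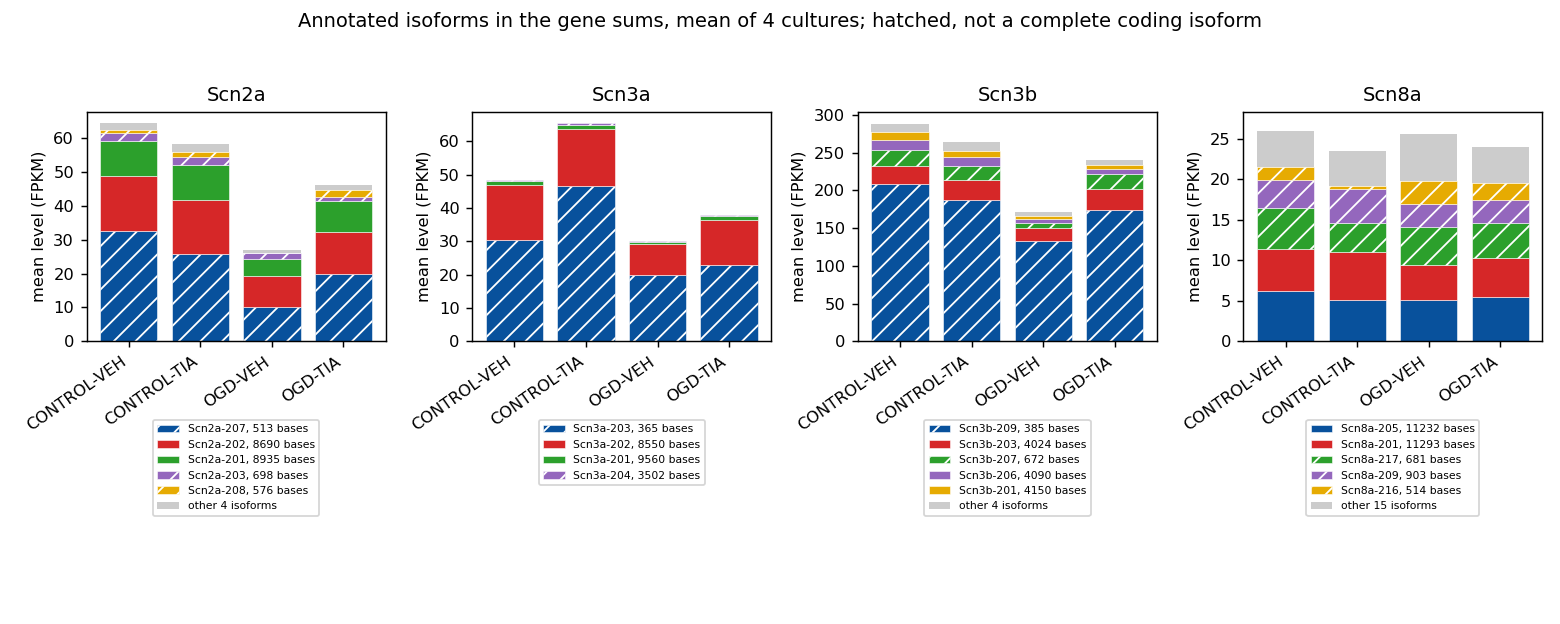
Mean FPKM over 4 cultures (y axis) of the annotated isoforms of Scn2a, Scn3a, Scn3b and Scn8a in the 4 groups (x axis), stacked, with hatching for isoforms that are not complete protein-coding transcripts. The fragments Scn2a-207, Scn3a-203 and Scn3b-209 make up 50.7, 62.5 and 72.6% of their gene sums in CONTROL-VEH, whereas the largest 2 blocks of Scn8a in CONTROL-VEH are full-length isoforms.

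The summed pan-neuronal markers were below the CONTROL-VEH range in every OGD-VEH culture. With all isoforms summed, Scn2a and Scn3b were within that range in OGD-VEH 9, and Scn8a in every OGD-VEH culture. Of 10 pan-neuronal markers, 7 were lower at an unadjusted p under 0.05, against 14.9% of all genes. Of these markers 1, Syt1, a calcium sensor of synaptic vesicles, fell past both thresholds (−1.52, padj = 0.0447 in limma), against 1.68% of genes. The median log2 fold change of the markers was −0.93 against 0.10 over all genes. Over the 8 members the median was −0.901. Per 1000 FPKM of pan-neuronal markers, Scn3b in complete coding isoforms had 16.6 FPKM in CONTROL-VEH and 15.8 in OGD-VEH, Scn3a 5.64 and 5.10, Scn1a 1.40 and 1.37, and Scn2b 2.71 and 2.19. Scn2a had 8.28 to 9.07 in CONTROL-VEH and 4.58 to 9.31 in OGD-VEH. On this scale 2 members left the CONTROL-VEH range in every OGD-VEH culture. Scn8a had 4.03 to 4.58 in CONTROL-VEH and 4.71 to 9.02 in OGD-VEH, and Scn9a averaged 0.104 and 0.00891. With all isoforms summed the Scn8a ratios overlapped. The marker sum itself was lower in OGD-VEH, and on this scale 57.6% of 12814 genes were higher without overlap, as Scn8a was, and 0.851% were lower without overlap. These ratios were not tested.

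**Figure D5:**
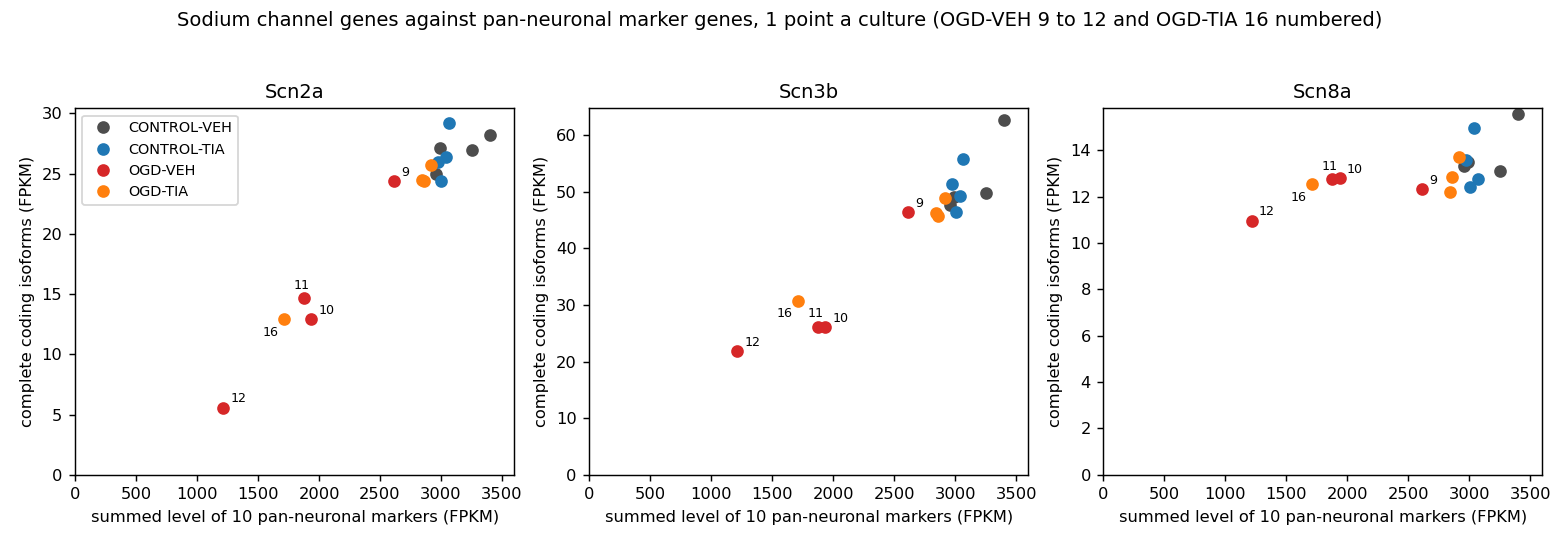
Level of Scn2a, Scn3b and Scn8a in complete coding isoforms (y axis, FPKM) against the summed level of 10 pan-neuronal marker genes (x axis, FPKM), 1 point a culture, coloured by group. Scn2a, Scn3b and Scn8a are all lowest where the markers are lowest (OGD-VEH 12, 1215 FPKM of markers). Scn8a stays between 10.96 and 15.6 FPKM over the whole range.

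Markers of other cells moved too. The 8 excitatory neuron markers summed to 366 to 409 FPKM in CONTROL-VEH and 107 to 348 in OGD-VEH. Of them, 7 were lower at an unadjusted p under 0.05, against 14.9% of all genes, with 0 at padj ≤ 0.05 in limma. The 10 inhibitory neuron markers summed to 471 to 865 and 361 to 512 FPKM, with Sst, the peptide somatostatin, at −2.13 (padj = 0.0416 in limma). At an unadjusted p under 0.05, 4 of these markers were lower, against 14.9% of genes, and 3 higher, against 3299 of 16346 genes. The 3 were the homeobox genes Dlx1, Dlx2 and Dlx5 of the inhibitory lineage. Their log2 fold changes were 0.99, 1.09 and 0.97 (padj of 0.105, 0.0509 and 0.0607 in limma). The 8 progenitor markers summed to 521 to 633 and 916 to 3020 FPKM, and 2 were called higher, against 2.4% of genes. These were the intermediate filament genes Vim (1.74, padj = 0.0340) and Nes (1.71, padj = 0.0427 in limma). The 8 astrocyte markers summed to 753 to 1610 and 1010 to 2530 FPKM with 0 called, and of 8 oligodendrocyte lineage markers (177 to 213 and 244 to 676 FPKM) 4 were called higher, against 2.4% of genes. The myelin gene Mbp of the same list was lower (−0.88, padj = 0.0493 in limma), and Mog averaged under 0.05 FPKM. Microglia markers summed to at most 3.13 FPKM in any culture, and those of fibroblasts and vessels to at most 18.2 FPKM. The part of such shifts in the sodium channel values was not tested.

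Genes that work with the channels were read from lists. Among the other sodium channel genes, Nalcn, a sodium leak channel, fell by 0.49 on the log2 scale in the vehicle arm (padj = 0.0455 in limma), from 10.7 to 7.55 FPKM. Among 18 scaffold and adhesion genes of the initial segment, 6 had padj ≤ 0.05 in the vehicle arm, all lower, against 3.45% of genes, and the median was −0.66. Cntn2, an adhesion molecule of axons, was called and stood at 7.93 FPKM after OGD (−1.06, padj = 0.0461 in limma). Over both arms 16 of the 18 were lower with padj ≤ 0.05, against 13.4% of genes.

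Of 20 modulators of the channels, 5 fell and 1 rose with padj ≤ 0.05 in the vehicle arm, against 3.45% and 4.99% of genes. Prrt2, which restrains sodium channel activity, was called at −1.32 (padj = 0.0485 in limma, 196 and 85.7 FPKM), and S100a10, an annexin partner known to aid channel delivery to the membrane, rose by 0.81 (padj = 0.0499 in limma). Among 13 regulators of splicing and transcription, Ptbp1, a splicing repressor of non-neuronal cells, rose by 1.15 (padj = 0.0340 in limma, 116 and 261 FPKM), and Rbfox1, a neuronal splicing factor, was at −1.42 (padj = 0.0858). Of 16 genes for sodium extrusion and exchange, 3 fell with padj ≤ 0.05, against 3.45% of genes. Called were Slc8a2, a sodium–calcium exchanger (−1.20, padj = 0.0448 in limma), and Fxyd7, a partner of the sodium pump (−1.13, padj = 0.0482 in limma). Of 8 genes for the cleavage of beta subunits, Bace1, the beta-secretase, fell by 0.49 (padj = 0.0437) and Psenen, a gamma-secretase subunit, rose by 0.61 (padj = 0.0336 in limma). In the TIA arm no gene of these lists was called, as for 0% of all genes, while 9 initial segment genes, 6 modulators and 4 extrusion genes were lower at an unadjusted p under 0.05, against 7.92% of genes.

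The genes most like each member over the 16 cultures were taken as the 3 highest Pearson correlations of log2 values among 13050 genes averaging 2 FPKM or more. For Scn2a these were B3galt2, Slc12a5, the neuronal potassium–chloride cotransporter, and Npr3 (r = 0.989 to 0.987). For Scn2b they were Prmt8, Rims4 and Disp2 (0.992 to 0.990), for Scn3b Ablim3, Sybu and Prrt4 (0.991 to 0.973), and for Scn1a Gm37773, Kif2a and Gucy1a1 (0.951 to 0.96). Scn3a was most like Cxcl12, Hprt and Cntn3 (0.923 to 0.919) and Scn9a most like Fgf11, Dgat2 and Mpg (0.922 to 0.906). For Scn8a the highest values were lower, at 0.839 for Adi1, 0.811 for March8 and 0.768 for Ccdc84, and for Scn4b, at its low level, 0.812 for Tomm40l. All of these correlations rest on the same 16 libraries and are a description.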

How the data were processed

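RNA-seq of 16 mouse cortical cultures in 4 groups was analysed from an isoform table. The authors' provider aligned 50-base single-end reads from a stranded mRNA kit with STAR to GRCm38 (Ensembl 92 annotation) and estimated isoforms with eXpress. The deposited values are FPKM, scaled between libraries by TMM per the file name, with no counts, so the DESeq2 test of the study was not repeated. Of 135276 lines, 74 without an identifier were left out. GENCODE M21 annotation matched 99.89% of isoforms and gave isoform types and exons.

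FPKM was summed per symbol, log2(FPKM + 0.1) was fitted in limma 3.58.1 (R 4.3.3, variance trend) over all genes averaging 0.5 FPKM or more in the fit, and p was adjusted by Benjamini-Hochberg. Called means a padj of at most 0.05 and an absolute log2 fold change of 1 or more. Scn9a and Scn4b were under the filter and read from the same fit without it. The fit was tested on simulated data. A single gene was also tested by exact permutation (two-sided, 70 assignments). Reads were estimated from FPKM, isoform length and an estimated depth, and intervals on them cover counting error only. Python 3.11.15, pandas 2.3.3, numpy 2.4.6, scipy 1.17.1 and matplotlib 3.10.9 were used.

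All members were named. Of each other list, the genes called in the vehicle arm were named (at most 4), or, where fewer than 2 were called, the 2 with the largest fold change. Some list genes and exons are not reported here. The members and lists were chosen with earlier results of these data known. Alternatives were the pseudocount, filter, scaling, isoform sum, array weights, robust fit, fit over all cultures and leaving out each culture. Complete coding isoforms and a filter at 0.1 FPKM were added after seeing the data. Cultures share no numbers across groups, and whether they came from separate dissections is not given in the sources used here, so p-values measure the spread between these cultures.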

Additional observations from a re-analysis of the deposited data

Results flagged for a closer look

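In 32 groups of 4 cultures (8 genes in 4 groups), 3 held a culture whose gap to the nearest other culture, as a share of the group's range, exceeded the 95% critical value of Dixon's test. Chance alone gives about 1 in 20 groups. Scn1a in OGD-VEH 12 was at 1.20 FPKM against 3.73 to 4.05 FPKM in the other OGD-VEH cultures (gap over range 0.888). Scn3a in CONTROL-VEH 1 was at 62.3 FPKM against 43.5 to 44.4 FPKM in the other cultures of its group (0.951), and its complete coding isoforms in that culture were the lowest of the group at 16.4 FPKM. Scn3b in CONTROL-VEH 4 was at 359 FPKM against 255 to 271 FPKM in the others (0.840), and at 62.7 against 47.7 to 49.8 FPKM in complete coding isoforms. The cause of these values was not tested.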

How the results depend on the processing

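No paired analysis was made, since cultures are numbered 1 to 16 across the groups and no groups share a number. Whether cultures at the same position in each group belong together is not given in the sources used here. Summed inhibitory neuron markers were 678, 471, 484 and 865 FPKM in cultures 1 to 4 and 734, 497, 468 and 691 in cultures 5 to 8. They were 489, 386, 361 and 512 FPKM in cultures 9 to 12 and 471, 263, 338 and 413 in cultures 13 to 16. In each group the outer positions were thus the higher, an order that the pan-neuronal sums did not repeat. A link by position was not tested, and all tests treated cultures as unpaired. For OGD-VEH against CONTROL-VEH, 0 members were called or at padj ≤ 0.05. With a pseudocount of 0.01, or a filter at 0.1 FPKM (added later), 1 was called and 1 was at padj ≤ 0.05. There 1.57% and 0.748% of all genes were called lower, and 3.28% and 1.35% were lower at padj ≤ 0.05. With isoforms weighted by length, or complete coding isoforms only (added later), 2 were called and 4 were at padj ≤ 0.05. With these 2 sums, 2.75% and 2.68% of all genes were called lower, and 9.76% and 9.09% were lower at padj ≤ 0.05. Array quality weights gave 3 and 4, and the fit over all 16 cultures 3 and 5, while the share of all genes called lower rose from 1.68% to 4.82% and 4.06%, and that lower at padj ≤ 0.05 from 3.45% to 15.7% and 12.4%. Leaving out each culture gave 0 to 4 for both, where 0 to 6.12% of all genes were called lower and 0 to 12.6% were lower at padj ≤ 0.05. Over both arms, 1 called member became 0 with a pseudocount of 1 and 2 with median-ratio scaling (1 to 2 leaving out each culture), and 4 members at padj ≤ 0.05 became 2 without filter (2 to 5). For OGD-TIA against OGD-VEH, array weights gave 1 member at padj ≤ 0.05, Scn2b (0.0487 in limma), with 3.49% of all genes higher and 5.93% lower at that padj, against 0% without the weights.

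Some log2 values changed sign. For Scn8a, OGD-TIA minus CONTROL-TIA was −0.0226 with median-ratio scaling, −0.0609 with length weighting, −0.0218 with array weights and −0.0639 with complete coding isoforms (−0.0423 to 0.0844 leaving out each culture). Over both arms, it was −0.0617, −0.145, −0.0210 and −0.123 (−0.0436 to 0.0333), and OGD-TIA minus OGD-VEH was 0.0769 with length weighting and 0.0710 with complete coding isoforms. Leaving out each culture moved Scn8a from −0.121 to 0.0458 in the vehicle arm and from −0.0265 to 0.143 in the interaction. CONTROL-TIA minus CONTROL-VEH was −0.00183 for Scn2b with length weighting and −0.00726 with array weights (−0.0193 to 0.0582), and −0.00670 for Scn9a in complete coding isoforms (−0.116 to 0.333). The interaction of Scn3a was −0.0920 with array weights (−0.400 to 0.388) and that of Scn4b −0.0290 with a pseudocount of 0.01 (−0.0906 to 0.127). Leaving out each culture moved OGD-TIA minus CONTROL-TIA from −0.187 to 0.0345 for Scn1a and from −0.255 to 0.0263 for Scn3b. Of 512 values of single members under settings with all cultures, 472 kept direction and side of the threshold, 23 passed it in addition, 2 no longer did and 15 changed sign. Of 512 such values leaving out each culture, 463 kept both, 5 passed it in addition, 9 no longer did and 35 changed sign. The cause of these changes was not tested. Depth limited Scn4b.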
